A study of Homo sapiens with 13 samples.

Results

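Promoters that were open in H82 and not in H146 were described here, gene by gene. H82 and H146 are established human lines of small cell lung cancer (SCLC). H82 represents the NEUROD1 subtype (SCLC-N) and H146 another neuroendocrine subtype. Both were profiled by ATAC-seq, in which a transposase inserts adapters into accessible DNA, in untreated cells (H146 n = 4, H82 n = 3) and in cells kept for 14 days in 100 nM FHD-286 (n = 3 for each line). FHD-286 inhibits SMARCA4 and SMARCA2, the ATPases of the SWI/SNF chromatin remodeling complexes. The region list of each line merged its untreated and treated samples, so a region could come from either condition, and treatment could not be examined. Each line stands for 1 cell culture model of its subtype, and a difference between the lists cannot be told apart from a difference between these particular lines.

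A gene was a member when at least 1 H82 region, and no H146 region, overlapped the window of 1 kb to either side of its transcription start site (TSS). The TSS was the 5′ end of the gene in GENCODE release 44, on chromosomes 1 to 22. Of 19111 protein-coding genes, 942 met this rule, which is 4.93% of all genes and 6.08% of the 15501 genes with an H82 region in the window. A further 14559 genes had a region in both lines and 3252 in neither. The reverse pattern, a region in H146 alone, was seen at 358 genes (1.87%). The H82 list was also the longer of the 2 lists, with 201148 regions against 169986, and it covered 5.67% against 4.72% of these chromosomes. The part of that difference in the 942 promoters was not tested. Because members were selected on the presence of regions in the 2 lists, the classes carry no test and no replicate error, and the read depth behind a region is unknown.

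A promoter is the stretch of DNA around a gene's start where RNA polymerase and transcription factors assemble, and accessible promoters are depleted of nucleosomes. Most promoters of broadly used genes lie in CpG islands and are open in many cell types, whereas promoters of tissue-specific genes are often poor in CpG and open where their lineage factors are present. NEUROD1 is a basic helix-loop-helix (bHLH) factor of neurons, neuroendocrine cells and the retina. OTX2 and CRX are homeodomain factors of photoreceptor and bipolar cells of the retina that recognize the word TAATCC.

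Genes of the retina had the highest share of members among the gene groups examined, which were chosen with earlier results of these data known. Upstream sequences of some photoreceptor and retina members and of GABRR3 are shown because they hold these words inside an H82 region. That of NEUROD1 follows. GABRR3 was picked from a ranking of stretches by number of these words, over members outside densely covered loci, as defined below. Its stretch held 3 words, whereas stretches at COQ8B, DDO, ZNF831, GGT5 and ODF3L2 held 4 each. Each is 150 bases of hg38, 5′ to 3′ on the strand of the gene. All but that of GABRR3 end at the base before the TSS, and that of GABRR3 is centred 111 bp before it. Capitals mark TAATCC (or its complement GGATTA) and CAGATG (or CATCTG), the bHLH word favored by NEUROD1. The sequences were taken from chr7:128775795-128775944 for OPN1SW, the blue cone opsin, and chr2:233307666-233307815 for SAG, the rod arrestin. Those of PDE6A and PDE6C, the catalytic subunits of the rod and cone phosphodiesterases, came from chr5:149944794-149944943 and chr10:93612387-93612536. The homeobox gene RAX2 was read at chr19:3772229-3772378 and GABRR3, a subunit of GABA receptors, at chr3:98035351-98035500. NEUROD1 itself, at chr2:181680828-181680977, carries 1 CAGATG word. SAG and PDE6C lie on the plus strand and the others on the minus strand.
OPN1SW: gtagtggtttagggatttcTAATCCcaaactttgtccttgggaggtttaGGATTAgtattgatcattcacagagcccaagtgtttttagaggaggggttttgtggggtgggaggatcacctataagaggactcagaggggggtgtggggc
SAG: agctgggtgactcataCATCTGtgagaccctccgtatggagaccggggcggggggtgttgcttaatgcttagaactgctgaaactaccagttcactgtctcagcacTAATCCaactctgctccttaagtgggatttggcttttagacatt
PDE6A: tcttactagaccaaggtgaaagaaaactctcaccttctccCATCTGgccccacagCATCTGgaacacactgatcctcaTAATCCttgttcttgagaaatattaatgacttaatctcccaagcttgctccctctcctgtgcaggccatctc
PDE6C: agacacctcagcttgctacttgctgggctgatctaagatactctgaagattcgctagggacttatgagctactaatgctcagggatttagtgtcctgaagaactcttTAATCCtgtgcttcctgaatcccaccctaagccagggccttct
RAX2: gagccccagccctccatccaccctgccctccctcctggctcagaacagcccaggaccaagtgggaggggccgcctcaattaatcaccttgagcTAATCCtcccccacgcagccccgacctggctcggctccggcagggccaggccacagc
GABRR3: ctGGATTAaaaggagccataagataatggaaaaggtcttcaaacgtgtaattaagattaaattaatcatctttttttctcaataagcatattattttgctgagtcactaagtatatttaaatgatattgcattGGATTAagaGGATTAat
NEUROD1: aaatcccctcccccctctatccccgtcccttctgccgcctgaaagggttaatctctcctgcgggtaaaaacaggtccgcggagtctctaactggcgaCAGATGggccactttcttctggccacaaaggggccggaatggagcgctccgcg

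A match to these words is a description of the sequence and does not show binding. In the 150 bases before the TSS, TAATCC on either strand was found at 8 of 25 photoreceptor and retina members (32%), at 87 of 942 members (9.24%) and at 3.90% of all 19111 genes. The photoreceptor genes with a region in both lines held it at 6 of 30 (20%). Promoters in both lines held it at 3.03%, those in H146 alone at 5.03% and those in neither at 6.15%. The same letters read backwards, CCTAAT, were found at 3.61% of members, 2.18% of promoters in both lines, 1.96% of those in H146 alone and 5.90% of those in neither, beside 2.88% of all genes. In the retina list CCTAAT was found at 2 of 25 members (8%) and at 4 of 30 genes open in both lines (13.3%). CAGATG was found before 9.24% of members, 5.16% of promoters in both lines, 8.66% of those in H146 alone and 9.72% of those in neither, beside 6.20% of all genes. The word TATAAA, 40 to 20 bases before the TSS, was found at 4.56% of members, 1.82% in both lines, 6.42% in H146 alone and 6.83% in neither. Both of these words were thus about as frequent or more frequent in the other classes not open in both lines.

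Words were also counted in the H82 regions themselves. In the central 200 bp of the 975 distinct H82 regions at members, TAATCC occurred at 0.82 per kb, against 0.223 per kb in 13002 regions at promoters in both lines. CAGATG occurred at 1.02 against 0.421 per kb. Over whole regions the contrasts were smaller, at 0.639 against 0.406 per kb for TAATCC and 0.801 against 0.572 per kb for CAGATG. Another E-box, CAGCTG, had no stable direction. It occurred at 0.908 against 0.701 per kb in the central 200 bp, at 0.628 against 0.687 per kb over whole regions, and at 0.812 against 0.679 per kb over whole regions outside loci densely covered by H82 regions, as defined below. The ETS word CCGGAAG was sparser at members, at 0.0974 against 0.378 per kb in the central 200 bp. The backward words CCTAAT (0.277 against 0.138 per kb) and GTAGAC (0.195 against 0.13 per kb) were also denser at members, and the members' promoters were lower in GC, as given below. The part of base composition in the contrast was not tested. Alu repeats carry TAATCC inside the run TGTAATCC, which made up 18.1% of the matches at members and 32.4% at promoters in both lines. Without that run, 12.1% of the members' central stretches held TAATCC, against 2.88%. In whole regions TAATCC occurred at 0.46 per kb at photoreceptor and retina members. It occurred at 0.642 per kb at other members and 0.43 per kb at photoreceptor genes in both lines. CAGATG occurred at 0.731, 0.802 and 0.682 per kb in the same order. Regions with at least 1 TAATCC made up 50%, 36.6% and 56.7%. Per kb, the retina members' regions were thus not denser in either word than those of other members.

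The H82 regions at members were narrow for promoters. The widest H82 region per member had a median of 658.5 bp (quartiles 348.2 and 1357.8 bp, range 200 to 527244 bp). At promoters in both lines the median was 1843 bp in H82 and 1748 bp in H146, and over all H82 regions it was 483 bp. The H146 regions at the 358 promoters open in H146 alone were narrower still, with a median of 374.5 bp. Regions of 200 bp, the smallest width in the list, accounted for 49 members (5.2%) and 0.371% of the promoters in both lines. Regions of 2 to under 5 kb were the widest ones at 110 members (11.7%), against 37.8% of promoters in both lines, and 20 members (2.12%) had a region of 5000 bp or more. A region lay over the TSS itself at 503 members (53.4%), where the median was 984 bp. At the other 439 it lay beside the TSS, and the median was 416 bp. At promoters in both lines the H82 region lay over the TSS in 92.2%, and at those in H146 alone the H146 region did so in 35.8%.

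**Figure D1:**
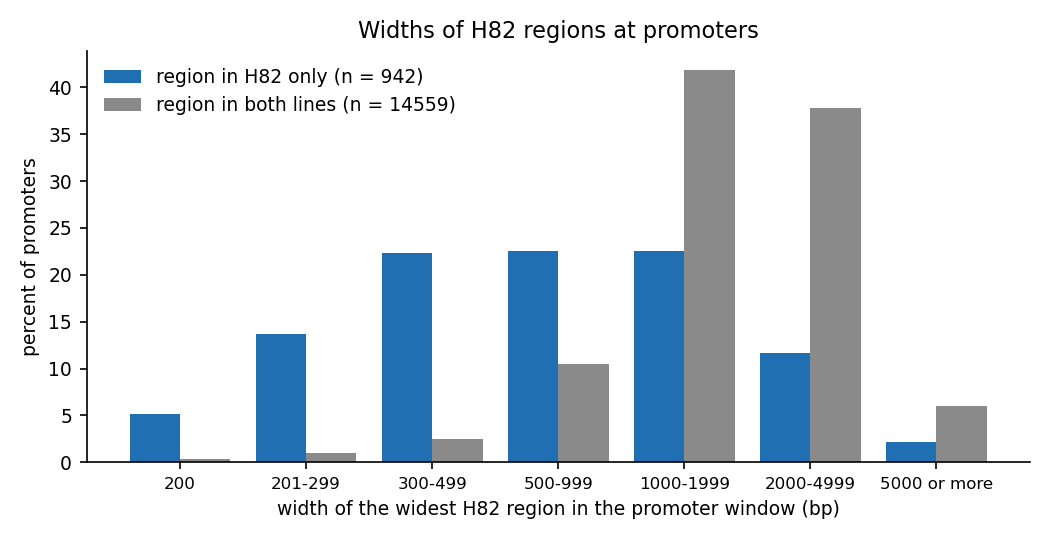
Percent of promoters (y axis) by the width in bp of the widest H82 region in the 1 kb window (x axis), for the 942 genes with a region in H82 only (blue) and the 14559 with a region in both lines (grey). Members are spread almost evenly from 300 bp to under 2 kb, whereas 41.8% of promoters in both lines fall between 1 and 2 kb.

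Some members shared a region or had H146 regions close by. The 942 windows held 975 distinct H82 regions, of which 37 were shared by 2 or more members (74 members in all), and 102 (10.5%) were overlapped by an H146 region elsewhere along their length. The distance from the TSS to the nearest H146 region had a median of 4540 bp (quartiles 2116.5 and 10529.8 bp). It exceeded 2 kb at 729 members (77.4%), 10 kb at 251 (26.6%) and 100 kb at 19 (2.02%). Promoters open in neither line were farther from H146 regions, with 86.9% beyond 2 kb, 43.7% beyond 10 kb and 2.95% beyond 100 kb. Just inside the rule stood AOC3, CBY2 and MGARP, with H146 regions 1001, 1007 and 1009 bp from the TSS, and just outside TEKTIP1, C1QTNF12 and ENSG00000289766, at 995, 991 and 990 bp. At 263 members (27.9%) an H146 region lay within 1 kb of the start of another transcript of the same gene, so that such a gene was not without an H146 region at all its starts. The other 679 had no H146 region at any annotated coding transcript start.

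The surroundings of the window, which the rule did not use, were also richer in H82 regions. Counting regions within 10 kb of the TSS that did not touch the window, members had a mean of 2.70 in H82 and 1.72 in H146. H82 had more of them at 516 members (54.8%) and fewer at 138 (14.6%). At promoters in both lines H82 had more at 38.4% and fewer at 22.9%. In promoters open in neither line H82 had more at 29.1% and fewer at 16.2%, and in those open in H146 alone at 29.9% and 26.8%. At the 25 photoreceptor and retina members, H82 had more at 16, fewer at 0 and as many at 9. At the 43 homeobox members it had more at 30, fewer at 5 and as many at 8, so the excess was not particular to retina genes.

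The widest regions outside densely covered loci included several at developmental and neuronal genes. A locus was called densely covered when H82 regions filled at least 50% of the 100 kb centred on the TSS. SIX3, a homeobox factor of forebrain and eye, had the widest region, 11455 bp (chr2:44933541-44944995). PCDH8, a protocadherin, had 8318 bp, and ISL2, a LIM homeobox factor of motor and retinal neurons, had 7874 bp (chr15:76335106-76342979). A region of 7865 bp (chr2:181677695-181685559) covered the start of NEUROD1 and that of its neighbor CERKL, a retinal disease gene, so it cannot be assigned to one of them. The remaining members among the 15 with the widest regions were SMIM44 (6929 bp), BEST4 (6353 bp), IGSF21 (5822 bp), RPL22 (5703 bp), CPLX3 (5525 bp), FBXL22 (5309 bp), ARHGAP27 (5299 bp), SLC23A1 (4974 bp), MYBPH (4966 bp) and GPR17 (4932 bp). CPLX3 encodes a complexin of retinal ribbon synapses, and GPR17 is a receptor of the oligodendrocyte lineage. RPL22, a ribosomal protein gene, had H146 regions at 3 of its 6 transcript starts.

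**Figure D2:**
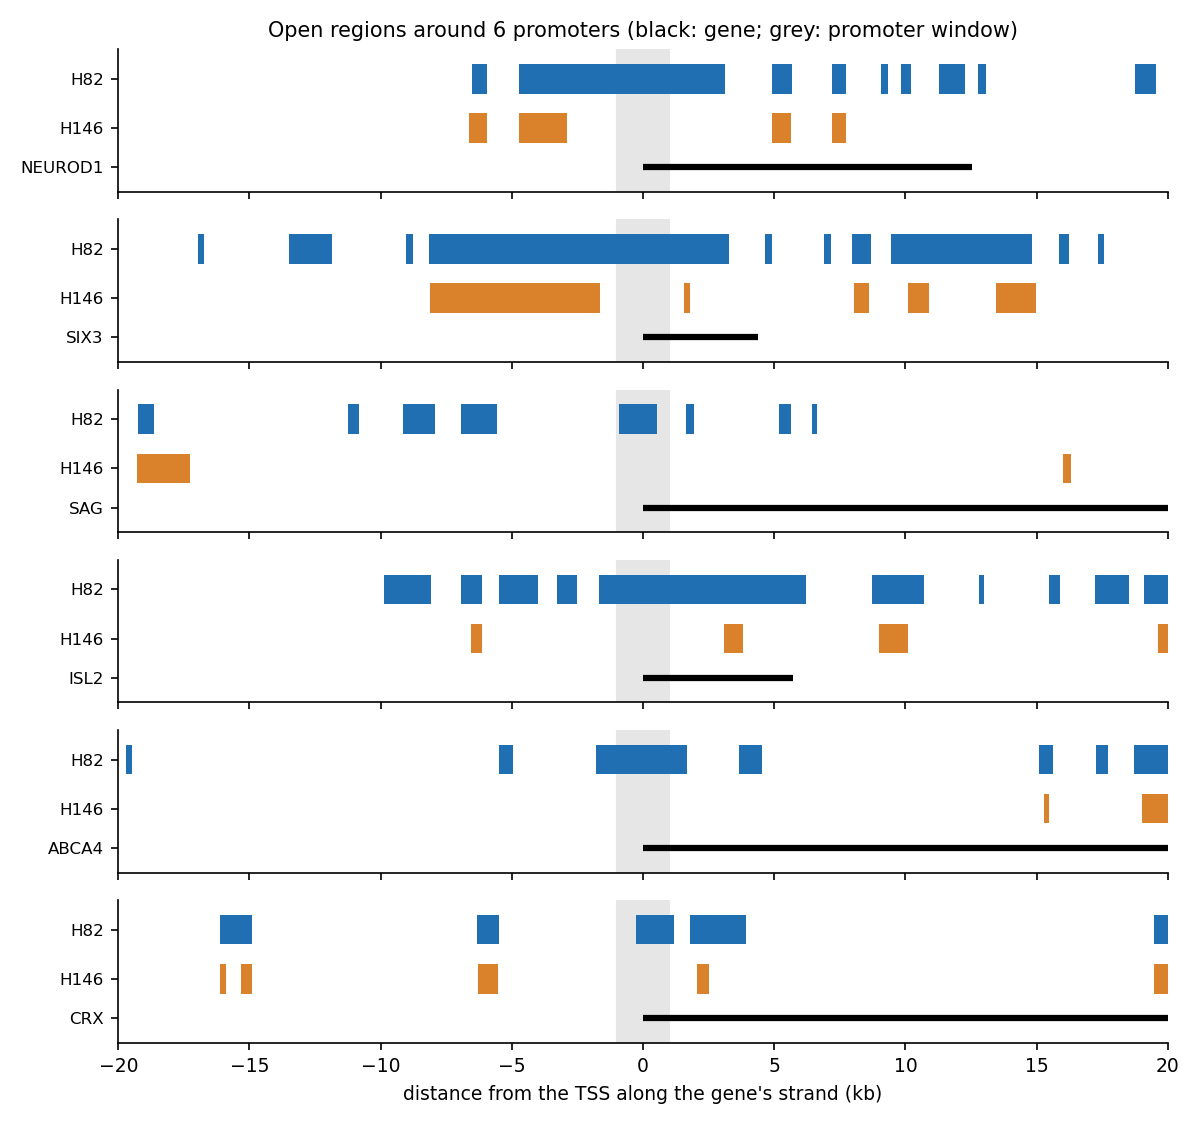
Open regions of H82 (blue) and H146 (orange) within 20 kb of 6 TSSs, by distance in kb along the strand of each gene (x axis), with the gene in black and the 1 kb window in grey. The H82 region crosses the window at each gene and the nearest H146 region ranges from 1578 bp away at SIX3 to 16022 bp at SAG.

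At NEUROD1, the factor that gives the SCLC-N subtype its name, 9 H82 and 4 H146 regions lay within 20 kb, and the nearest H146 region was 2896 bp from the TSS. None of its 3 transcript starts had an H146 region. The start of OTX2 lay in an H82 region of 2979 bp, with an H146 region 5193 bp away, and 0 of its 8 transcript starts had one in H146. H82 regions covered 84% of the 10 kb to either side of OTX2, against 3.86% in H146, and it was among the densely covered loci. For CRX, a target of OTX2 in the retina, the H82 region at the first start measured 1448 bp, whereas 2 of its 3 transcript starts had an H146 region.

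Other genes central to the study included members and genes open in both lines. REST, SRRM4, YAP1 and SMARCA4 had a region over the TSS in both lines. SMARCA2 was a member by its most upstream start, where the H82 region was 1774 bp wide and the nearest H146 region was 18205 bp away, but 35 of its 43 transcript starts had an H146 region. WWTR1, which encodes the Hippo effector TAZ, had a region of 432 bp in H82, and 6 of its 8 transcript starts had an H146 region. ERBB3, a receptor tyrosine kinase, had an H82 region 277 bp from its first start and an H146 region at 8 of 11 transcript starts. Each of these 3 genes thus had promoters with H146 regions besides the one the rule used.

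The photoreceptor and retina list had the highest share of members of the 35 main gene lists. Of its 66 genes, 25 (37.9%) were open in H82 alone, 0 in H146 alone, 30 in both lines and 11 in neither, beside 4.93% of all genes. The main lists were also chosen with earlier results of these data known, so this share is a description and was not tested. The phosphodiesterase 6 complex of phototransduction was represented by 4 of the 5 genes examined, PDE6A, PDE6C and the inhibitory subunits PDE6G and PDE6H, with regions of 842, 544, 370 and 273 bp. The fifth, PDE6B, was open in neither line. OPN1SW had a region of 932 bp and SAG one of 1452 bp, both over the TSS, and their nearest H146 regions were 2671 and 16022 bp away.

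Among the retinoid genes, ABCA4, the photoreceptor retinoid transporter, had a region of 3452 bp with the nearest H146 region 15280 bp away, RPE65, the retinoid isomerase, 957 bp, RDH8, a retinol dehydrogenase of outer segments, 589 bp, and RLBP1, the retinaldehyde carrier, 377 bp. Among structural genes, PROM1 had 2457 bp, IMPG2 and IMPG1, proteoglycans of the matrix between photoreceptors, 1730 and 372 bp, TULP1 413 bp, PRPH2, the disc rim protein peripherin, 428 bp, and RP1L1 254 bp. GUCA1C, an activator of guanylate cyclase, had 2223 bp and CNGB3, the cone channel subunit, 457 bp. MPP4, a scaffold protein of the photoreceptor synapse, had 712 bp. Among factors of the eye, SIX3, OTX2, CRX, RAX2 (769 bp) and PAX6 (363 bp) were members. The PAX6 region lay beside the TSS, with an H146 region 1394 bp from the TSS. H82 regions covered 41.86% of the 10 kb to either side of PAX6, and H146 regions 43.25%. Of the same list, NRL (2261 bp in H82, 2253 bp in H146) and RAX were open in both lines. NR2E3, SIX6, RCVRN, PDC, RDH12 and RGR were open in neither. In 19 of the 25 members the region lay over the TSS, 7 had no H146 region within 10 kb, and 6 had an H146 region at another transcript start.

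**Figure D3:**
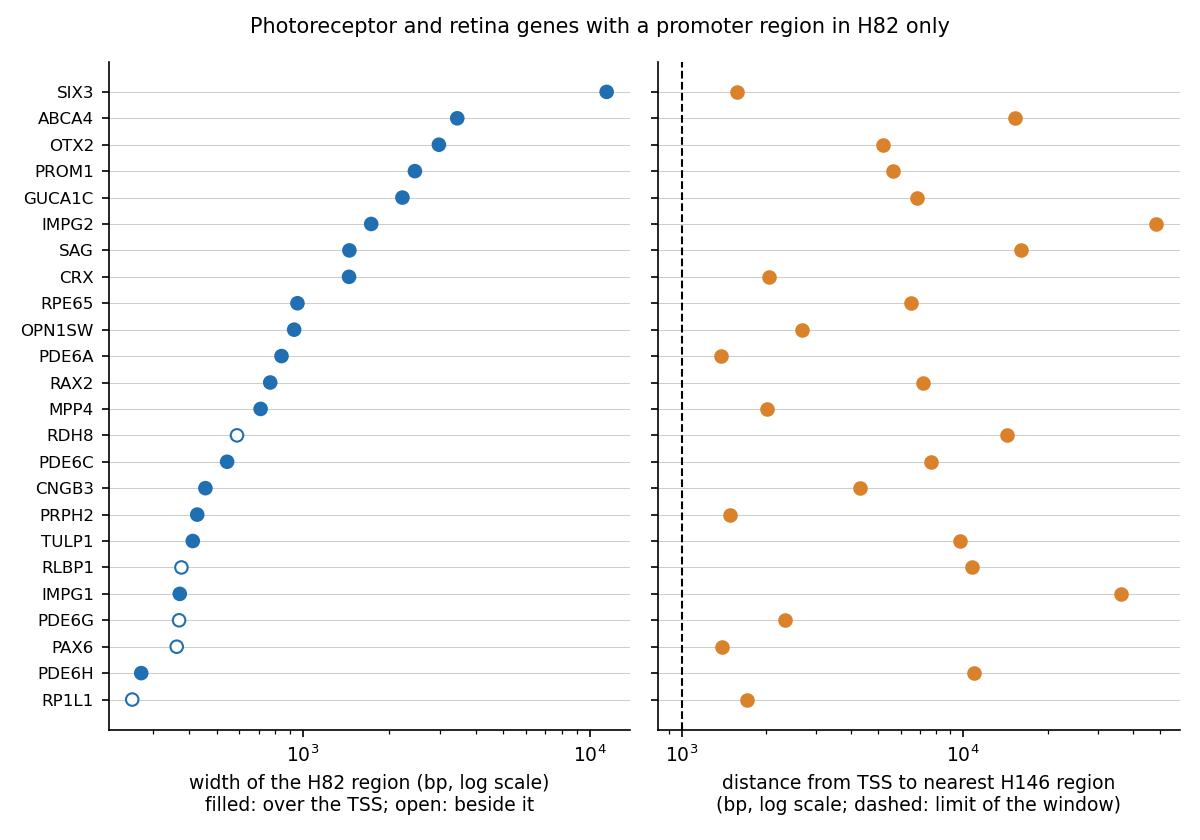
Photoreceptor and retina members (24 of the 25), with the width of the H82 region (left, bp, log scale, filled where it lies over the TSS) and the distance from the TSS to the nearest H146 region (right, bp, log scale, dashed line at the 1 kb limit). Widths run from 254 bp at RP1L1 to 11455 bp at SIX3, and distances from 1378 bp at PDE6A to 48405 bp at IMPG2.

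The 30 retina genes with a region in both lines were not chosen by the rule for a difference. Their widest H82 region was wider than their widest H146 region at 23 of 30, with medians of 1768 and 1403 bp. Over all 14559 promoters in both lines, the H82 region was the wider at 43.7%. The list includes RBP3, the retinoid-binding protein between photoreceptors, with 2877 bp in H82 and 200 bp in H146. Widths have no replicate values, and the difference was not tested.

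A further list of retinal bipolar cell, synapse and ciliopathy genes was written after the members had been seen, so its share cannot be read against all genes. It held 17 members of 42 genes, 16 with a region over the TSS. Besides CERKL and CPLX3 it included SLC1A7, a glutamate transporter of retina (3816 bp), TRPM1, the cation channel of ON bipolar cells (1414 bp), GPR179 (795 bp), CABP5 (743 bp) and GRM6, the bipolar cell glutamate receptor (200 bp, beside the TSS).

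The share of members differed between families of transcription factor genes. Of 204 homeobox genes, 43 (21.1%) were members, beside 4.93% of all genes, and 5 were open in H146 alone. With a window of 2 kb the homeobox share was 15.7%. SIX3, OTX2, CRX, RAX2 and PAX6, among others, were counted in both this list and the retina list. The median width at homeobox members was 1300 bp, and 31 of the 43 had the region over the TSS. Besides SIX3, ISL2 and OTX2, wide regions lay at BARHL2 (3553 bp) and IRX2 (2841 bp). The clusters of HOX genes, which set position along the body axis, gave 11 members of 39 genes, of which 23 were open in both lines. They were HOXA2, HOXA4, HOXA5, HOXB8, HOXB13, HOXC6, HOXC11, HOXC13, HOXD3, HOXD8 and HOXD9, with H82 regions from 376 bp (HOXA2) to 2605 bp (HOXD8). POU5F1B lay inside a single H82 region of 527244 bp. The further members named here had regions from 200 bp at CDX2 to 2246 bp at ARGFX. They were ARGFX, ALX1, CDX2, DUX4, EN1, EVX2, GSX1, LHX8, MKX, MSX2, NANOGP8, NKX1-1, NKX2-3, NKX2-6, OTP, PAX3, POU3F3, SEBOX, TLX3 and TPRX1, the last sharing its region with CRX.

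Of 97 bHLH genes, 12 (12.4%) were members, beside 4.93% of all genes, and 1 was open in H146 alone. NEUROD1 had the widest region. NEUROG1, a factor of sensory neuron precursors, had 4148 bp, MYOG, the muscle factor myogenin, 3374 bp, and OLIG1 and OLIG2, factors of oligodendrocytes and motor neurons, 2424 and 1952 bp. TCF24 (1324 bp), HAND2 (1122 bp), FERD3L (851 bp), MYF5 (548 bp), HELT (538 bp), SOHLH2 (292 bp) and TWIST2 (280 bp) made up the rest. Forkhead genes gave 8 members of 48 (16.7%), led by FOXB2 (2822 bp) and FOXD4 (1964 bp). SOX genes gave 0 of 18, with 16 open in both lines. C2H2 zinc-finger genes gave 14 of 544 (2.57%), below the share of all genes, with 481 open in both lines.

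The 36 genes of the neuroendocrine list, which mark both subtypes, were mostly open in both lines (30 genes). The 3 members were NEUROD1, CALCA, the calcitonin gene (976 bp, beside the TSS), and SCG5, a secretory granule chaperone (965 bp). Among neuropeptide and peptide hormone genes, a list also written after the members were seen, 13 of 63 were members. They included UCN (3077 bp), AGRP (2141 bp), NPY (1420 bp) and OXT (1419 bp), and 5 genes of the list were open in H146 alone. With a window of 2 kb the share of this list was 11.1% in place of 20.6%, and neither share can be read against all genes.

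Receptor and channel lists had shares from 7.53% to 12.8%, beside 4.93% of all genes. Among genes with an H82 region, the share was 8.86% for potassium channels and 10.7% for G protein-coupled receptors. It was 6.08% over all genes with an H82 region. Voltage-gated calcium and sodium channels gave 5 of 39, ligand-gated channels 7 of 64 (10.9%), potassium channels 7 of 93 and G protein-coupled receptors 25 of 329 (7.60%), and another 18 of the latter were open in H146 alone. Receptor tyrosine kinases gave 7 of 58 (12.1%) and 0 in H146 alone, among them LTK (3599 bp), DDR2 (1758 bp) and ERBB3 (1383 bp). Solute carriers gave 30 of 338 (8.88%, or 5.92% with all transcript starts), led by SLC23A1 (4974 bp), a vitamin C transporter, and SLC1A7. Claudins and tight junction genes gave 4 of 32, with CLDN15 at 2647 bp, CLDN19 at 1928 bp and CLDN5, the endothelial claudin, at 1416 bp.

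The remaining lists held few genes or had shares nearer to the 4.93% of all genes. Secreted growth and patterning factors gave 8 of 137, with SEMA6B (4866 bp) and INHA (3149 bp) the widest, and matrix, integrin and matrix protease genes 8 of 154. Nuclear receptors gave 2 of 44, PPARG, the adipocyte receptor (1234 bp, H146 region 57659 bp away), and NR2F2 (1061 bp). Pigment cell genes gave 2 of 16, clustered protocadherins 4 of 53, other cadherins 3 of 54, enzymes of the cytochrome P450 and related families 8 of 114, and keratins 8 of 149, where 16 keratin genes were open in H146 alone. The Hippo, Notch and SWI/SNF lists gave 1 each, WWTR1, RBPJL and SMARCA2.

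Some muscle genes were among the members. The list of sarcomere and striated muscle genes was again written after the members were seen, so its share cannot be read against all genes. It held 23 members of 102 genes, with 51 genes open in both lines, 26 in neither and 2 in H146 alone. MYBPH (4966 bp), TNNC1, the troponin C of slow and cardiac muscle (3788 bp), MYOG, TRIM54 (2065 bp), MYH3, the embryonic myosin heavy chain (1905 bp), and TNNI1 (1821 bp) had the widest regions outside densely covered loci. The nearest H146 region lay 1020 bp from the TSS at MYOG, 1728 bp at MYBPH, 1889 bp at TRIM54, 5425 bp at TNNI1 and 10458 bp at MYH3. MYH6, the atrial myosin heavy chain, lay in an H82 region of 73496 bp in a densely covered part of chromosome 14.

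Immune and germ line lists had shares on both sides of the 4.93% of all genes. Cytokines, chemokines and their receptors gave 17 of 200 (8.5%), with 11 in H146 alone. Blood cell receptors gave 7 of 224 (3.12%), with 8 in H146 alone. Of 60 interferon-induced and innate sensor genes 5 were members, STING1 (2690 bp), AIM2 (1755 bp), ISG20 (698 bp), CGAS (374 bp) and OAS2 (200 bp). STING1 and CGAS, the receptor and the synthase of one DNA-sensing pathway, had no H146 region at any transcript start. Testis and germ cell genes gave 19 of 178 (10.7%), among them REC8 (2026 bp) and PIWIL2 (1032 bp).

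Housekeeping groups had few members, beside 4.93% of all genes. Mitochondrial ribosomal and respiratory chain genes gave 1 of 160, COX7A1, the muscle isoform of a cytochrome oxidase subunit, proteasome and core transcription genes 2 of 132, histone genes 1 of 81 and cytosolic ribosomal genes 2 of 76. Olfactory and taste receptors gave 10 of 441 (2.27%), with 394 open in neither line. Among genes with an H82 region the order of the lists differed. Members then made up 45.5% of the photoreceptor and retina genes and 28.6% of the olfactory and taste receptors. The share was 26.85% in recently multiplied families, 24.6% in homeobox genes and 23.5% in clustered protocadherins, beside 6.08% of all genes with an H82 region. In all, 361 members (38.3%) were in at least 1 of the lists and 581 in none.

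**Figure D4:**
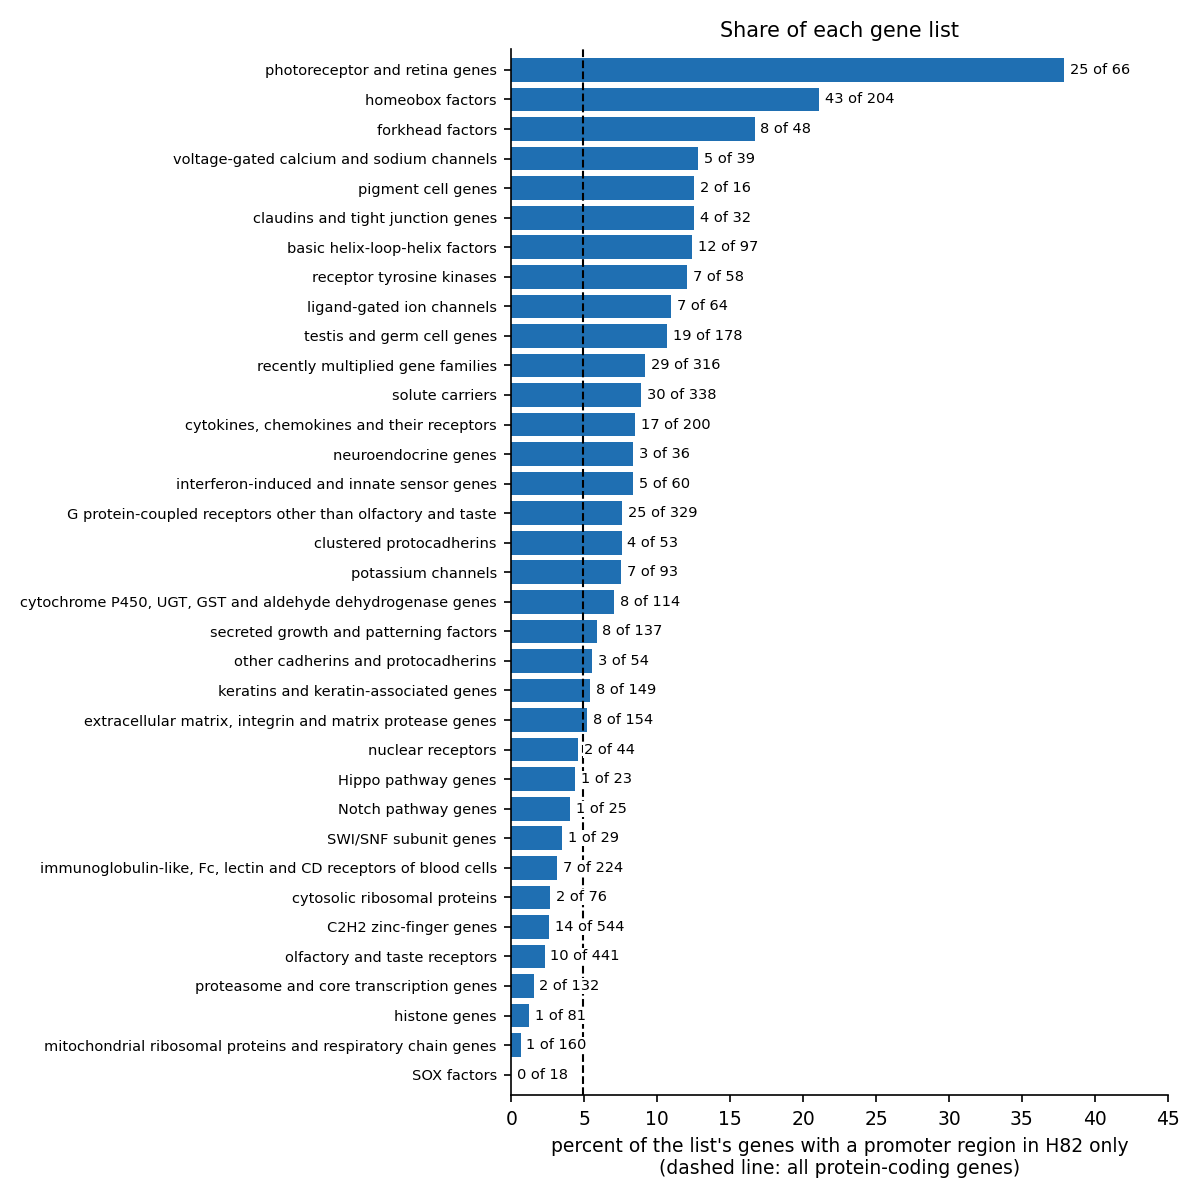
Percent of the genes of each of 35 lists with a promoter region in H82 only (x axis), with the counts beside the bars and the share of all protein-coding genes as a dashed line. Photoreceptor and retina genes lead at 37.9% and homeobox factors follow at 21.1%, while SOX factors and the housekeeping lists lie at the low end. Among genes with an H82 region alone, the order below the retina list differs, as given in the text.

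The base composition of the members' promoters, which the rule did not use, stood between the classes. A promoter was called CpG-rich when the 500 bp to either side of the TSS had an observed/expected CpG ratio of at least 0.6 and at least 50% GC. Of the members 216 (22.9%) were CpG-rich, against 73.9% of promoters in both lines, 10.9% of those in H146 alone and 5.66% of those in neither. The median ratio was 0.31 in members, 0.75 in both, 0.25 in H146 alone and 0.22 in neither, and the median GC content of members was 54.4% against 61.9% in both. CpG-rich members had wider regions (median 998 bp) than the others (592 bp). The groups differed among themselves, since 11 of 12 bHLH members and 28 of 43 homeobox members were CpG-rich, but 2 of 25 photoreceptor and retina members were.

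**Figure D5:**
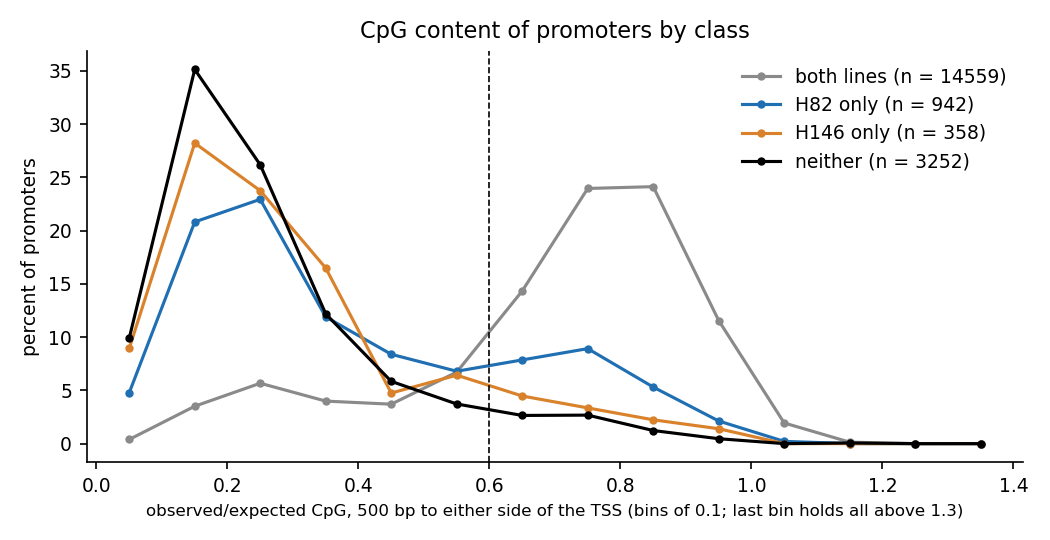
Percent of promoters (y axis) by observed/expected CpG ratio in bins of 0.1 (x axis), for the 4 classes of promoters, with a dashed line at 0.6. Most promoters in both lines lie to the right of 0.6, while the members have its main peak near the CpG-poor end and a smaller one above 0.6.

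The members farthest from any H146 region lay in long stretches without H146 regions. They were PRAMEF18 (359531 bp), SHISA6 (356977 bp), SLIT3 (280438 bp), DAPK1 (261101 bp), PPIC (205231 bp), SNX2 (198053 bp), CEP120 (181427 bp), CSNK1G3 (160971 bp), LMNTD1 (158930 bp) and PRDM6 (152715 bp). PPIC, SNX2 and PRDM6 shared a stretch of 664.9 kb on chromosome 5 (chr5:122577027-123241955) that held 26 H82 regions, and CEP120 and CSNK1G3 the next one, of 431.0 kb with 15. DAPK1, a death-associated kinase, and CTSL, a lysosomal protease, lay in a stretch of 609.5 kb on chromosome 9 with 39 H82 regions. In such stretches, closed chromatin in H146 cannot be told apart from loss of the DNA. All 5 members of the chromosome 5 stretches had CpG-rich promoters, whereas 0 of the 2 members of the chromosome 9 stretch did.

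Members lay mostly alone along the chromosomes. Of the runs of neighboring members, 708 held 1 gene, 88 held 2, 12 held 3, 3 held 4 and 2 held 5. The runs of 5 were DNAJC5G, SLC30A3, TRIM54, UCN and MPV17 on chromosome 2, and the near-identical copies PRR20A to PRR20E on chromosome 13. The runs of 4 were PPIC, PRDM6, CEP120 and CSNK1G3, then DAPK1, CTSL, SPATA31E1 and SPATA31C1, and the chromosome 15 genes GOLGA8J, GOLGA8T, CHRFAM7A and GOLGA8R. Recently multiplied families gave 29 members of 316 genes (9.18%), and in them reads may be shared between copies, so these calls are uncertain. By chromosome, the share of members was highest on chromosome 15 (67 of 601 genes, 11.1%) and chromosome 21 (23 of 220, 10.5%), and lowest on chromosome 18 (5 of 266, 1.88%) and chromosome 16 (18 of 857, 2.1%).

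Densely covered loci held 24 members (2.55%) and 1.89% of all genes. Their median width was 2970 bp, against 631 bp elsewhere. The 3 longest regions were those at POU5F1B, at BCL2L2 (105870 bp) and at MYH6 and IL25 (73496 bp), and of the 24 members 11 lay on chromosome 1 and 6 on chromosome 14. A region of such length spans many genes, so its presence at a start does not single out that promoter.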

How the data were processed

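Reads of the 13 samples were processed by the authors with Trim Galore 0.4.4, Bowtie2 2.3.4 (hg38) and removal of duplicates. MACS2 peaks of each sample were filtered against blacklisted regions and merged within 500 bp into 1 atlas per line. The authors deposited the 2 atlases as region start and end positions in bp, with no score, count or per-sample value, so no test across samples was run. For H146, 3 untreated samples were sequenced in one batch and its other untreated and treated samples in a second, which the pooled atlas does not separate. Regions were intersected with TSS windows in Python 3.11.15 (numpy 2.4.6, pandas 2.3.3, pysam 0.24.0), checked with bedtools 2.31.1 and on simulated regions. Members and gene lists were chosen with earlier results of these data known. Lists were matched by gene symbol. Genes were named by fixed rules: the 15 widest regions outside densely covered loci, the 10 farthest from H146, up to 4 widest per list, all members of the retina, bHLH, homeobox and neuroendocrine lists, the study's own genes, the longest runs and genes nearest the 1 kb limit. Genes of lists written later and others named for their region were chosen after values were seen. Certain genes and sequences that these rules would name are not reported here.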

Additional observations from a re-analysis of the deposited data

How the results depend on the processing

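The number of members was 942 and lay between 787 and 957 under 7 of the 8 alternatives (windows of 500 bp, 2 kb and 5 kb, all transcript starts, regions of at least 300 or 500 bp, no densely covered loci), but the genes differed, with 442 of the 942 shared at 5 kb and 679 with all transcript starts. Requiring the H82 region over the TSS left 503. The median width was 803 bp with a window of 500 bp and 572 bp with 2 kb, against 658.5 bp. A stricter CpG threshold (0.75 and 55% GC) gave 10.2% CpG-rich members in place of 22.9%. The homeobox share was 15.7% with a 2 kb window, and the retina share lay between 28.8% and 37.9%. Over whole regions TAATCC occurred at 0.639 per kb and CAGATG at 0.801, against 0.82 and 1.02 in the central 200 bp, and CAGATG at 0.853 without densely covered loci. The values at promoters in both lines were 0.406 and 0.572 over whole regions and 0.223 and 0.421 in the central 200 bp, and the direction for CAGCTG turned between these settings. Among the other results, 100 values stayed within the counting interval and 19 moved, among them the Hippo, Notch, SWI/SNF and cytosolic ribosomal lists, which had 0 members with all transcript starts, and the neuropeptide list (11.1% with a 2 kb window). The causes were not tested. No paired analysis was possible because each atlas pools its samples, and for the same reason no replicate could be left out.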
